A study of Mus musculus with 6 samples.

Results

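In J1 mouse embryonic stem cells, microRNA arms were set side by side between 1 library of cells given retinoic acid and 3 libraries of cells given BIO, CHIR99021 or vitamin C. These are 4 of the 6 libraries of the series, with 1 library per group. J1 is an established mouse embryonic stem cell line, grown here on gelatin without feeder cells, in serum replacement with the cytokine LIF. All 6 groups had LIF, so the retinoic acid cells were not taken off it. The retinoic acid cells received 1 µM for 24 h, the BIO cells 1 µM, the CHIR99021 cells 3 µM and the vitamin C cells 50 µg/ml, each for 24 h. The remaining libraries are the vehicles, 1 µL of DMSO, which the design names as the control of BIO, CHIR99021 and retinoic acid, and 1 µL of ddH2O, the control of vitamin C. Retinoic acid and vitamin C therefore do not share a vehicle. The question set by the comparison is how far a compound that drives differentiation moves microRNAs away from compounds that support stem cell culture.

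A microRNA is cut from a hairpin whose sides give a 5p and a 3p arm, and the bases from position 2 to 8 of the arm, the seed, pair with target messages. Retinoic acid binds nuclear receptors on DNA and switches on Hox genes and other early differentiation genes in embryonic stem cells. GSK3, a kinase that holds back Wnt signalling, is blocked by BIO and by CHIR99021, and vitamin C is a cofactor of enzymes that remove methyl groups from histones and DNA. In mouse embryonic stem cells the miR-290 to miR-295 cluster supplies much of the microRNA pool, and let-7 is known for its build-up during differentiation.

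Of 1290 arms with tags, 559 reached 10 counts per 1000000 microRNA tags (CPM) in at least 1 of the 4 libraries and were compared. An arm was called when retinoic acid lay at least 2-fold outside all 3 compounds and the 95% exact interval of the ratio to the nearest compound excluded 1. That interval covers counting error only, as PCR reads that carry no molecular identifiers do not count molecules, and with 1 library per group no test between treatments could be made. Retinoic acid was called higher for 123 arms, 22% of those compared, and lower for 21 arms, 3.76%. By any amount it lay above all 3 compounds for 311 arms (55.6%) and below all 3 for 123 arms (22%). An arm that reached 10 CPM in retinoic acid but in no compound could lie only above the compounds. A compared arm below 10 CPM in retinoic acid could not lie above all 3 compounds. Such arms are part of the higher and lower counts below, and the lists were chosen with earlier results of these data known. The share of calls in a list, set beside that of all arms, is therefore a description and not a test.

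The mature sequences below are from RefSeq on GRCm38, with the seed in capitals. The first 6 are arms that were high after retinoic acid. miR-10a-5p and miR-10b-5p share a seed, as do miR-99a-5p and miR-100-5p, whereas miR-217-5p and miR-216b-5p come from neighbouring hairpins and have different seeds. The miR-181 sequences carry 1 seed on arms that moved in opposite directions. The last 5 are arms of the X-linked cluster and of the arms that were low after retinoic acid.
miR-10a-5p: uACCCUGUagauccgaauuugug
miR-10b-5p: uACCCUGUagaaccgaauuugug
miR-99a-5p: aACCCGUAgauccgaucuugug
miR-100-5p: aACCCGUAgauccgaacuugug
miR-217-5p: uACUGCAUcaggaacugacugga
miR-216b-5p: aAAUCUCUgcaggcaaauguga
miR-181a-5p: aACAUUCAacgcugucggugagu
miR-181b-5p: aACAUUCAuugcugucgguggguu
miR-181c-5p: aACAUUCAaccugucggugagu
miR-181d-5p: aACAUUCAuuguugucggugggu
miR-470-5p: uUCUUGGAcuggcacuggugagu
miR-881-3p: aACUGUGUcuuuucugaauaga
miR-196a-5p: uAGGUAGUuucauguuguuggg
miR-290a-3p: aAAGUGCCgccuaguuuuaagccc
miR-708-5p: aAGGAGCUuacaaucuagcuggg

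The files hold 18870345 to 23758363 tags per library, and the depth in microRNA tags was 729317 for retinoic acid, 2100258 for BIO, 1428877 for CHIR99021 and 1890637 for vitamin C. MicroRNA tags made up 3.77% of the retinoic acid library, against 6.01% to 9.44% of the compounds and 8.59% to 11.4% of the vehicles. A count of 0 allows up to 4.11 CPM in retinoic acid and 1.43 to 2.10 CPM in the compounds. The median arm stood 0.51 above the middle compound on the log2 scale after retinoic acid, and this shift was -0.01 with TMM scaling and -0.72 when all tags of the library set the scale. The split of calls moved with it, from 123 higher and 21 lower to 72 and 45 with TMM and to 38 and 102 with all tags. All 21 lower calls were made under these 3 scales, and list medians below are to be read against the median of 0.51.

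The vehicles gave the background of the same call. DMSO set against the same 3 compounds was higher for 1 of 508 arms (0.197%), miR-296-3p, and lower for 2 (0.394%). ddH2O was higher for 3 of 510 arms (0.588%), miR-132-3p among them, and lower for 3 (0.588%). These comparisons share the 3 compound libraries with that of retinoic acid. Every arm called for retinoic acid also lay outside both vehicles on the same side, at 2-fold or more for all but 17 of the 123 higher and all but 2 of the 21 lower arms. The vehicles did not always lie with the compounds for these arms. By any amount, ddH2O lay beyond all 3 compounds on the same side as retinoic acid for 64 of the higher and 11 of the lower arms. DMSO did so for 36 and 9. Against all 5 other libraries together, retinoic acid was higher for 105 of 565 arms (18.6%) and lower for 17 (3.01%). Over the 251 arms with a mean of 100 CPM or more, the SD of the log2 ratio of retinoic acid to a compound was 1.08 to 1.37, against 0.60 to 0.71 between compounds and 0.46 between the vehicles. In bulk RNA, fewer cells of a type and less of an arm per cell cannot be told apart.

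**Figure D1:**
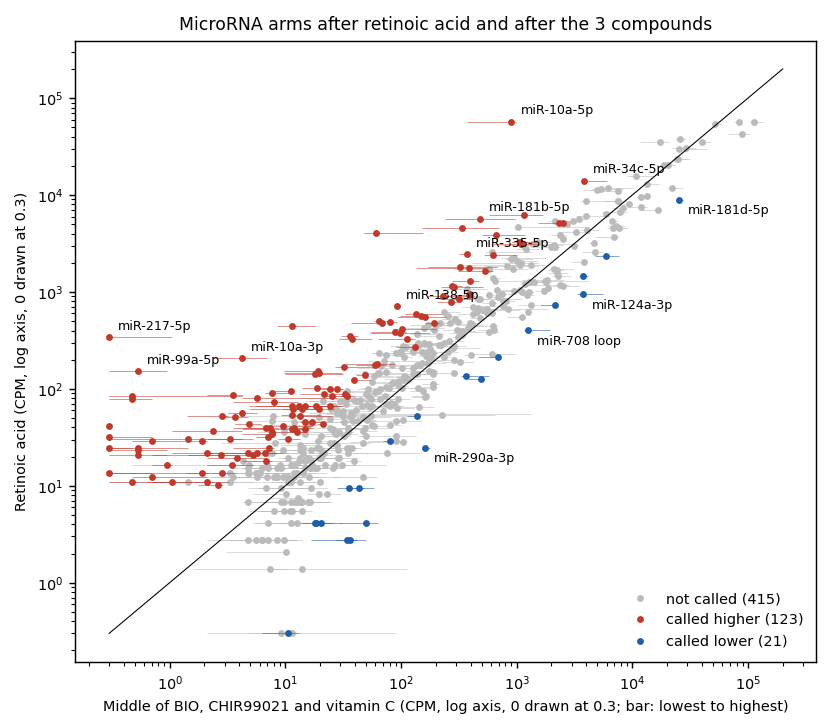
Level of each of the 559 compared arms after retinoic acid (vertical axis, CPM, log scale) against the middle of the 3 compounds (horizontal axis, CPM, log scale), with a bar from the lowest to the highest compound and the line of equal levels. Red points are the 123 arms called higher, blue points the 21 called lower and grey points the 415 not called, and miR-10a-5p stands alone above the line at high level.

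MicroRNAs encoded within the Hox clusters had the highest median of the 20 lists, and not all in a single direction. Of 7 compared arms, 5 were called higher, 1 was called lower and 1 lay below all 3 compounds without a call, with a median of 5.53. Among the higher calls, miR-10a-3p, miR-615-5p and miR-615-3p reached the minimum level of the comparison in no compound, so they could lie only above the compounds. The median of 5.53 is the value of miR-10a-3p and so rests on such an arm. miR-10a-5p lies at chr11:96317186-96317207 on the plus strand (GRCm38), in the HoxB cluster, outside annotated genes of that strand. It stood at 57215 CPM after retinoic acid, against 370 after BIO, 902 after CHIR99021 and 997 after vitamin C. The vehicles held 484 CPM in DMSO and 1158 in ddH2O, so the retinoic acid library alone was high. The ratio to vitamin C, the nearest compound, was 57.4 (95% interval 54.8 to 60.2). With that, miR-10a-5p ranked 1 in abundance among all arms after retinoic acid, and its best rank in a compound was 92. Its passenger arm miR-10a-3p, at 207 CPM against 2.38 to 6.999, was higher by 29.6-fold (15.7 to 63.0).

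miR-10b-5p has the same seed as miR-10a-5p and sits in an intron of Hoxd3 and Hoxd4. It stood at 80.9 CPM after retinoic acid, 28.0 after CHIR99021, 5.71 after BIO and 4.23 after vitamin C. Here CHIR99021 stood above the other compounds and both vehicles, and the retinoic acid library was 2.89-fold (1.90 to 4.43) above it. Summed over that seed, retinoic acid held 57296 CPM and the 5 other libraries 375.2 to 1165. The arms of miR-615, from an intron of Hoxc5, were close to absent elsewhere. miR-615-5p stood at 83.6 CPM after retinoic acid, 4.20 after CHIR99021, 0.476 after BIO and 0 after vitamin C and in both vehicles. miR-615-3p stood at 31.5 CPM, against at most 0.6999 in any other library.

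The other Hox microRNA, miR-196a, lay on the opposite side. miR-196a-5p, which represses Hoxb8, stood at 213 CPM after retinoic acid, 739 after BIO, 693 after CHIR99021 and 468 after vitamin C. It was 2.20-fold (1.85 to 2.63) lower than vitamin C, with DMSO at 390 CPM and ddH2O at 638. miR-196a-1-3p, at 42.5 CPM, also lay below the 74.1 to 99.5 CPM of the compounds, with no call.

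Arms from the miR-217 and miR-216b hairpins, known from the pancreas, were near 0 in every library except that of retinoic acid. miR-217-5p, at chr11:28763760-28763782 in an intron of the long noncoding RNA gene Gm12082, stood at 341 CPM after retinoic acid and 1.06 after vitamin C. It had no tag after BIO, after CHIR99021 or in either vehicle, and its ratio to vitamin C was 323 (88.4 to 2680), an interval this wide because vitamin C held so few tags. miR-216b-5p, at chr11:28746204-28746224, stood at 41.1 CPM and had no tag in any of the 3 compounds. Set against 3 counts in the compound with the highest floor, it was at least 19.6-fold higher. These hairpins are neighbours on chromosome 11.

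miR-375-3p, an arm of pancreatic islet and neuroendocrine cells, stood at 330 CPM after retinoic acid, 37.6 after BIO, 29.4 after CHIR99021 and 56.1 after vitamin C. It was 5.89-fold (4.67 to 7.48) above vitamin C, and ddH2O, at 105 CPM, lay above all 3 compounds too. The other 4 members of that endoderm and pancreas list were not called. miR-215-5p lay above all 3 compounds, at 19.2 CPM against 8.40 to 13.2, and the 5p arm of miR-194-2 lay within their range. miR-192-5p, an arm of gut and liver, stood at 3169 CPM, below the compounds' 4123 to 4846. The liver arm miR-122-5p stood at 54.9 CPM after retinoic acid and 1324 after CHIR99021, against 22.4 to 33.2 in the other 4 libraries. Of 7 compared arms in the list, 3 were called higher and 0 lower, against 22% and 3.76% of all arms. Of these calls, miR-217-5p and miR-216b-5p reached the minimum level of the comparison in no compound and could lie only above the compounds.

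Arms known from the nervous system were called in both directions. Of 15 compared arms of the neural list, 8 were called higher, against 22% of all arms, and 1 was called lower, with a median of 2.05. The list was chosen with earlier results of these data known, so this share does not test whether neural arms were called more often. Among the 8 calls, miR-138-1-3p, miR-135a-2-3p and miR-132-3p reached the minimum level of the comparison in no compound. They could therefore lie only above the compounds. miR-219a, known for its part in oligodendrocyte maturation, gave the highest level among the called arms. miR-128-3p, a neuronal arm that was more abundant, lay within the range of the compounds at 7266 CPM against 6725 to 8807. miR-219a-2-3p stood at 4024 CPM after retinoic acid, 154 after BIO, 47.6 after CHIR99021 and 61.4 after vitamin C, a ratio of 26.1 (23.2 to 29.4) to BIO. The 5p arm from the same hairpin stood at 448 CPM, against 8.40 to 18.6. The 5p arm counted for the miR-219a-1 hairpin was called as well, at 89.1 CPM against 13.3 to 25.1, whereas miR-219a-1-3p lay within the 82.6 to 126 CPM of the compounds. The mature 5p sequences of the hairpins are identical, and tags that matched both were split evenly. Without those shared tags the 5p arm of miR-219a-2 was still called, at 396 CPM against 6.37 to 16.4, and that of miR-219a-1 was not, at 33.3 CPM against 11.3 to 21.4. Both arms of miR-219a-2 thus lay above the compounds, and the call on miR-219a-1 rested on shared tags.

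miR-138-5p, which acts in dendritic spines, stood at 709 CPM after retinoic acid and at 91.0 to 99.04 CPM in the compounds, a 7.16-fold difference (6.08 to 8.45). The 3 compounds differed by at most 1.09-fold here, and ddH2O was at 131.5 CPM. Its passenger arm miR-138-1-3p was close to absent outside the retinoic acid library, at 24.7 CPM there against 0 to 0.928 in the 5 others. miR-135a-2-3p, in an intron of the neural long noncoding RNA gene Rmst, stood at 79.5 CPM against 0 to 0.6999 in the compounds. miR-132-3p and miR-212-5p, arms of neighbouring hairpins that respond to neuronal activity, were called at 20.6 CPM against 1.43 to 3.70 and at 35.7 CPM against 7.14 to 15.3. For both, ddH2O lay above all 3 compounds, and for miR-132-3p ddH2O itself met the same call, at 10.86 CPM.

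The neuronal arm miR-124a-3p went the other way. It stood at 943 CPM after retinoic acid, 3309 after BIO, 3771 after CHIR99021 and 5552 after vitamin C. It was 3.51-fold (3.24 to 3.799) lower than BIO, and the vehicles, at 2234 and 2938 CPM, also lay below all 3 compounds. miR-9-5p, an arm of neural progenitors, stood at 233 CPM against 84.7 to 185, with ddH2O at 250, so that it was not outside the range of the 6 libraries.

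**Figure D2:**
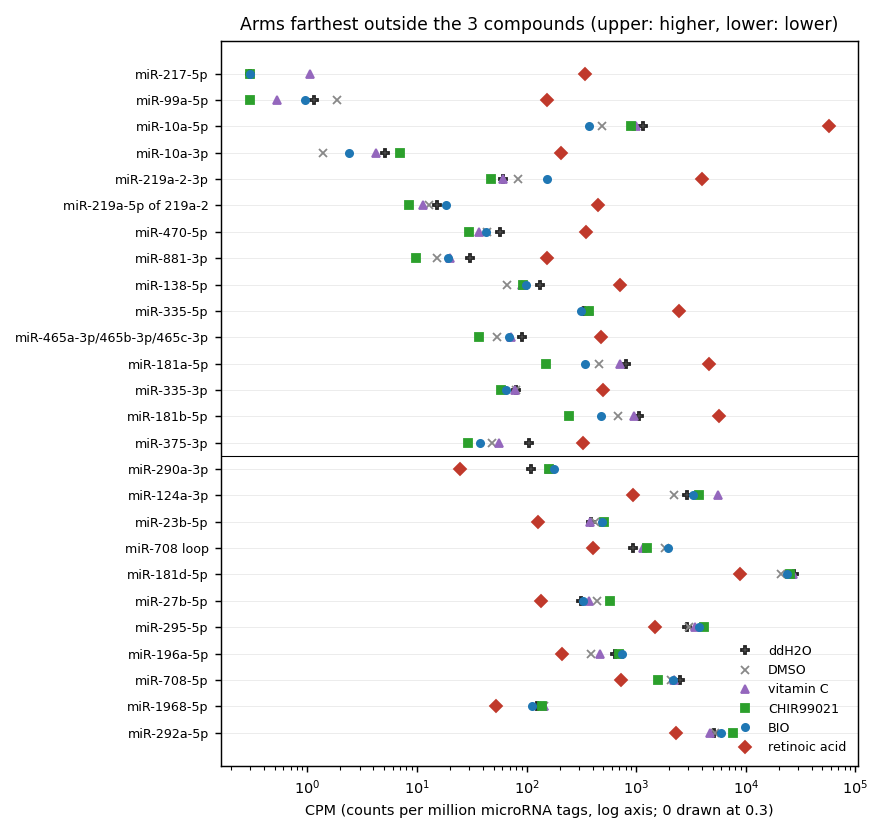
Level (CPM, log axis, with 0 drawn at 0.3) of the 15 arms farthest above and the 11 arms farthest below the nearest compound, in all 6 libraries. Red diamonds are retinoic acid, and for each of the 26 arms they lie apart from the symbols of the 3 compounds and the 2 vehicles.

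miR-99a-5p and miR-100-5p share a seed and come from paired clusters that also hold let-7 and miR-125 hairpins. miR-99a-5p stood at 152.2 CPM after retinoic acid, 0.952 after BIO, 0.529 after vitamin C and 0 after CHIR99021, a ratio of 160 (43.2 to 1336) to BIO. miR-100-5p stood at 43.9 CPM, against 3.70 to 6.19. The third arm with this seed, miR-99b-5p, was already abundant, at 2901 to 3129 CPM in the compounds, and stood at 5453 CPM after retinoic acid without reaching a call. Of the 7 compared arms of the list with miR-125, 2 were called higher and 0 lower, against 22% and 3.76% of all arms. Both calls, miR-99a-5p and miR-100-5p, reached the minimum level of the comparison in no compound and could lie only above the compounds. The let-7 list gave no call in 9 compared arms, and its median was 0.10. let-7c-5p lay above all 3 compounds, at 37488 CPM against 23420 to 29004, while let-7a-5p, at 13058 CPM, and let-7f-5p, at 23684 CPM, lay within the compounds' range. The let-7 median changed sign to -0.51 with TMM, when that of all arms was -0.01.

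The miR-181 family differed by locus. The arms of the chromosome 1 cluster, miR-181a-1 with miR-181b-1, were all called higher, 4 of 4, and those of the chromosome 8 cluster, miR-181c with miR-181d, all lay below the compounds, 4 of 4 with 2 calls. In the chromosome 1 count, the passenger arms miR-181a-1-3p and miR-181b-1-3p reached the minimum level of the comparison in no compound. They could therefore lie only above the compounds, and the 5p arms are not particular to this locus. miR-181a-5p stood at 4619 CPM after retinoic acid, 338 after BIO, 151 after CHIR99021 and 710 after vitamin C, 6.51-fold (6.11 to 6.94) above vitamin C. miR-181b-5p stood at 5722 CPM, against 481, 242 and 965 CPM in the same order, 5.93-fold (5.61 to 6.27) above vitamin C. CHIR99021 was the lowest of the 6 libraries for both.

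These 5p arms are also made from a second locus on chromosome 2, which their tags do not separate. The passenger arms do separate the loci, and they were higher at each: miR-181a-1-3p at 20.6 CPM against at most 0.952, miR-181b-1-3p at 13.7 CPM against at most 0.6999, and miR-181a-2-3p, from chromosome 2, at 147 CPM against 9.80 to 31.2. In contrast, miR-181d-5p, in an intron of the germ cell gene Nanos3 at chr8:84178758-84178781, stood at 8906 CPM after retinoic acid, 23835 after BIO, 25477 after CHIR99021 and 27208 after vitamin C. It was 2.68-fold (2.61 to 2.75) lower than BIO, and the vehicles held 20837 CPM in DMSO and 27424 in ddH2O. miR-181c-5p, at 731 CPM, lay below the 1027 to 1537 CPM of the compounds, without a call.

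All 4 of these 5p arms carry the seed printed above. Of 100 seeds held by a called arm, 7 were shared by 2 or more called arms. Among those 7, this seed was the only 1 with calls in both directions. Summed over the seed, retinoic acid held 19978 CPM, BIO 25681, CHIR99021 27191 and vitamin C 30419. The sum therefore lay below all 3 compounds although miR-181a-5p and miR-181b-5p lay above them. When all tags set the scale, 7 of the 9 arms of the miR-181 list reached the minimum level, 2 were called higher and 4 lower. Over those 7 arms the list's median was -1.66. Over the same 9 arms it was 2.90 with microRNA tags and 1.57 with all tags as the scale, so its sign depended on the arms kept.

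**Figure D3:**
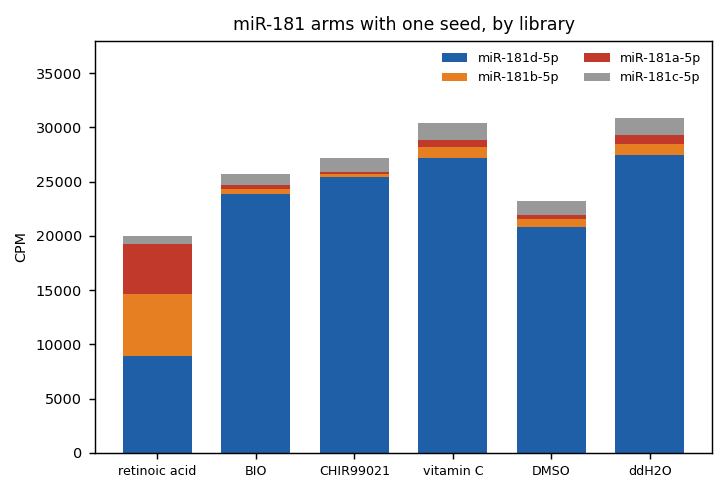
Stacked bars of the 4 arms that share the miR-181 seed (vertical axis, CPM, from 0) in each of the 6 libraries. In the retinoic acid bar miR-181a-5p and miR-181b-5p, at 4619 and 5722 CPM, exceed miR-181d-5p together, which is at 8906 CPM there and at 20837 CPM or more in every other bar.

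The list with the highest share of calls was the X-linked cluster from miR-743a to miR-465, a rodent cluster known from testis and male germ cells. Of its 20 compared arms, 19 were called higher and the last also lay above all 3 compounds, against 22% and 55.6% of all arms. The 16 compared arms from miR-743a to miR-470 together held only 79.8 to 120.5 CPM in a compound. Arms that reached the minimum level of the comparison in no compound could lie only above the compounds, so the count of 19 is not a test. The list's median was 3.38, and it stayed positive, at 2.89 with TMM and 1.97 with all tags as the scale. The summed level was 2208 CPM after retinoic acid, 300 after BIO, 211 after CHIR99021 and 300 after vitamin C, with 286 in DMSO and 386 in ddH2O. No other library came near that of retinoic acid.

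Among the single arms, miR-470-5p stood at 351 CPM after retinoic acid, 42.9 after BIO, 30.1 after CHIR99021 and 36.5 after vitamin C. It was 8.19-fold (6.42 to 10.5) above BIO. miR-881-3p, at 152.2 CPM against 9.80 to 20.1, was 7.57-fold (5.20 to 11.2) higher. miR-465c-5p, the most abundant member, stood at 492 CPM against 79.8 to 93.1, and the 3p arm shared by miR-465a, miR-465b and miR-465c stood at 476 CPM against 37.1 to 71.9. miR-471-5p was at 52.1 CPM against 1.40 to 3.17, the widest of these ratios at 16.4 (6.89 to 47.5). That arm reached the minimum level of the comparison in no compound and could lie only above the compounds. Arms along the whole stretch were therefore higher. Among them, miR-470-5p, miR-881-3p and the named miR-465 arms reached the minimum level in a compound and could have lain on either side.

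**Figure D4:**
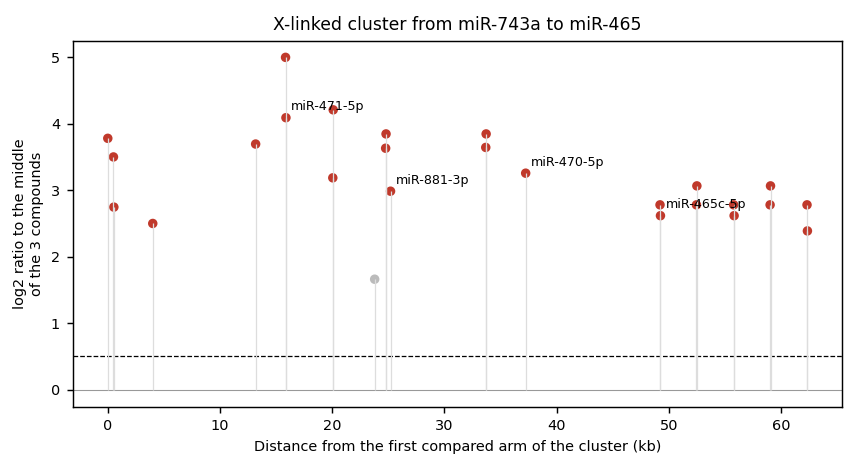
Log2 ratio of retinoic acid to the middle of the 3 compounds (vertical axis) for each arm of the X-linked cluster, by distance in kb from its first compared arm; an arm with several copies is drawn at each. Red points are called higher, the grey point is not called, and all lie above the dashed line, the median of all arms at 0.51.

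Other X-linked hairpins were called too. Chromosome X holds 67 of the 559 compared arms and 35 of the 123 called higher, and 0 of the 21 called lower. Without the 20 arms of that cluster, 16 of 47 X-linked arms (34.04%) were called higher, against 22% of all arms. In the cluster within Clcn5, which holds miR-500, miR-532, miR-362 and miR-188, 6 of 7 arms were called higher, with miR-532-5p at 795 CPM against 203 to 302.3. In the miR-322 and miR-503 cluster, whose arms slow the cell cycle, 4 of 9 were called. miR-503-5p stood at 3313 CPM against 887 to 1482, and miR-322-3p at 1307 CPM against 275 to 470.9. In the list of miR-15, miR-16 and these arms, 3 of 13 were called higher, close to the 22% of all arms. miR-221-3p, an arm that targets the cell cycle inhibitor p27, stood at 924 CPM against 285 to 415. In the miR-106a cluster, also on X, 0 of 11 arms were called, so the calls did not extend to the whole chromosome.

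The 2 largest clusters expressed in these cells showed smaller differences on more arms. The Sfmbt2 intron on chromosome 2 holds a mouse cluster of miR-297, miR-466, miR-467 and miR-669 hairpins. Of its 41 compared arms, 39 lay above all 3 compounds, against 55.6% of all arms, and 23 were called higher, against 22%. The arms of this cluster had a median of 1.57. The most abundant, miR-669c-5p, stood at 35596 CPM after retinoic acid, 20680 after BIO, 17228 after CHIR99021 and 11716 after vitamin C, and was not called. The 3p arm of miR-467a and miR-467d was called at 1651 CPM against 313 to 631, and that of miR-669a and miR-669o at 1825 CPM against 173 to 679. These hairpins are near-copies, so how tags divide among them is uncertain. With TMM 8 of 38 were called, and with all tags 0 of 33.

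In the imprinted Dlk1-Dio3 region on chromosome 12, 73 of 82 compared arms lay above all 3 compounds, against 55.6% of all arms. None lay below, but 15 (against 22% of all arms) were called higher. With TMM 2 of 82 were called, and with all tags 0 of 81. Its median was 1.10, and -0.22 when all tags set the scale. miR-127-3p stood at 11530 CPM after retinoic acid, 5370 after BIO, 4378 after CHIR99021 and 8239 after vitamin C, without a call. miR-134-5p, which acts in dendrites, was called at 3125 CPM against 629 to 1541, and miR-487b-3p at 2432 CPM against 519 to 1017. Vitamin C was the highest compound for all 3, and miR-134-5p was less than 2-fold above at least 1 vehicle. For the called arms as a whole, vitamin C was the nearest compound for 67 of 123 higher and 12 of 21 lower, and without it 184 of 553 arms would be called higher.

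Further abundant arms came from single loci. miR-335-5p, in an intron of the imprinted gene Mest at chr6:30741314-30741336, stood at 2476 CPM after retinoic acid, 317 after BIO, 370 after CHIR99021 and 373 after vitamin C. It was 6.63-fold (6.08 to 7.24) above vitamin C, with both vehicles inside the narrow range of the compounds. miR-335-3p followed, at 502 CPM against 58.1 to 78.3. miR-483-5p, in an intron of the imprinted gene Igf2, stood at 86.4 CPM against 2.12 to 4.29.

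miR-34c-5p, of a family that the tumour suppressor p53 activates, stood at 14117 CPM after retinoic acid, 3851 after BIO, 3823 after CHIR99021 and 6096 after vitamin C. It was the only call among 8 compared arms of the miR-34 list, and miR-34a-5p, at 239 CPM, lay within the compounds' 232 to 268. The calls of miR-34c-5p and miR-503-5p were lost with TMM and with median-of-ratios scaling, and when all tags set the scale both lay below the highest compound. miR-1a-3p, the muscle arm, stood at 6258 CPM against 580 to 1675, with ddH2O at 2817. miR-206-3p was at 53.5 CPM against 9.10 to 20.1, and these were the 2 calls among 4 compared muscle and heart arms. miR-152-3p, in an intron of Copz2, stood at 3838 CPM against 501 to 1192, and miR-22-3p at 1142 CPM against 260 to 335; both are calls of the fibroblast and mesenchymal list, which had 3 in 9 arms. These list counts, and that of miR-34, stand beside the 22% of all arms called higher. With all tags as the scale no arm of the muscle and heart or the fibroblast and mesenchymal list was called higher.

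Stem cell arms lay mostly on the low side. The miR-290 to miR-295 cluster held 168316 CPM after retinoic acid, 307536 after BIO, 342388 after CHIR99021 and 280494 after vitamin C, with 291715 in DMSO and 272665 in ddH2O. Of its 14 compared arms, 13 lay below all 3 compounds, against 22% of all arms, and 3 were called lower, against 3.76%. With 0 called higher, the median was -0.90, which was -1.31 with TMM and -1.99 with all tags. The arms differed. miR-290a-3p was called at 24.7 CPM against 159 to 177, a 6.44-fold difference (3.98 to 11.1). miR-292a-5p, at 2332 CPM against 4759 to 7655, and miR-295-5p, at 1473 CPM against 3454 to 4175, were called with 2.04-fold (1.94 to 2.15) and 2.35-fold (2.20 to 2.50) differences. The miR-292a-5p call was lost when tags with untemplated 3' ends were counted too. The miR-295-5p call was lost when both vehicles joined the comparison.

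The most abundant arms of the cluster were lower by less than the call needs on the scale of microRNA tags. With TMM 7 of the 14 arms were called lower, miR-293-3p among them, and with all tags 13 were, with miR-293-3p, miR-290a-5p and miR-294-3p among them. miR-293-3p stood at 56705 CPM against 103355 to 134944, and miR-290a-5p at 42540 CPM against 66710 to 105054. miR-294-3p, which promotes the stem cell cycle, was at 23540 CPM after retinoic acid and 23853 after vitamin C, and the interval of that ratio, 0.996 to 1.03, included 1. miR-291a-3p, at 4334 CPM, lay within the 3601 to 5151 CPM of the compounds. miR-295-3p, which has the same seed as these, stood at 11830 CPM against 20219 to 27628. The cluster as a whole held 0.547 of its level in the middle compound.

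The related miR-302 cluster was low in all libraries, at 91.9 CPM after retinoic acid and 81.5 to 254 CPM in the compounds, and 0 of its 4 compared arms were called. The miR-17-92 cluster with its paralogs, which drives proliferation, had 0 calls in 24 arms and a median of 0.01, which was -0.50 with TMM. miR-92a-3p stood at 15583 CPM against 9023 to 15394. The epithelial miR-200 family had 0 calls in 6 arms, with miR-200b-3p at 363.4 CPM against 307 to 351.

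The miR-183 cluster, which serves sensory cells and is also expressed in embryonic stem cells, lay below all 3 compounds with every compared arm, 7 of 7, and 3 were called lower. Over all arms, 22% lay below all 3 compounds and 3.76% were called lower. miR-182-5p stood at 4596 CPM after retinoic acid, 7741 after BIO, 9032 after CHIR99021 and 6628 after vitamin C. miR-182-3p was called at 9.60 CPM against 28.0 to 47.6, and miR-96-3p at 4.11 CPM against 16.9 to 25.9. The third call was a fragment of the miR-182 hairpin between its arms. All 3 called tags were below 10 CPM after retinoic acid, with few counts there, and so could not lie above the compounds. The median was -1.01, and with TMM 6 of the 7 were called.

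miR-708, in an intron of Tenm4, gave 2 lower calls. miR-708-5p stood at 732 CPM after retinoic acid, 2165 after BIO, 1586 after CHIR99021 and 2233 after vitamin C, and was 2.17-fold (1.97 to 2.38) lower than CHIR99021. The other call was not an arm but the loop, the stretch between the 5p and 3p sequences that is cut out when the arms are made. Its most abundant tag, shown because it starts directly after miR-708-5p, lies at chr7:96249473-96249495 on the plus strand of GRCm38.
miR-708 loop: ggtagatgacttgcacttgaaca
It stood at 400 CPM after retinoic acid, 1933 after BIO, 1261 after CHIR99021 and 1151 after vitamin C, a 2.88-fold (2.54 to 3.26) difference from vitamin C. All 5 loop tags that were compared lay below all 3 compounds, against 22% of all arms, and 3 were called lower, against 3.76%.

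Among the other low arms, miR-23b-5p and miR-27b-5p are passenger arms of 1 cluster on chromosome 13. miR-23b-5p stood at 127.5 CPM against 379 to 512, and miR-27b-5p at 134 CPM against 330 to 574. miR-23b-3p did not reach a call, and the 3p arm shared by miR-27a and miR-27b, at 1316 CPM, lay within the compounds' range. For that arm 81.4% of tags were outside 20 to 24 bases. miR-150-3p, of lymphocytes, stood at 4.11 CPM against 29.6 to 63.7. miR-155-5p, of activated immune cells, stood at 4.11 CPM against 13.8 to 18.9, and miR-1968-5p at 52.1 CPM against 112 to 144.9. The blood cell list gave 2 lower calls in 5 compared arms and the miR-23, miR-27 and miR-24 list 2 in 7. Over all arms, 3.76% were called lower.

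**Figure D5:**
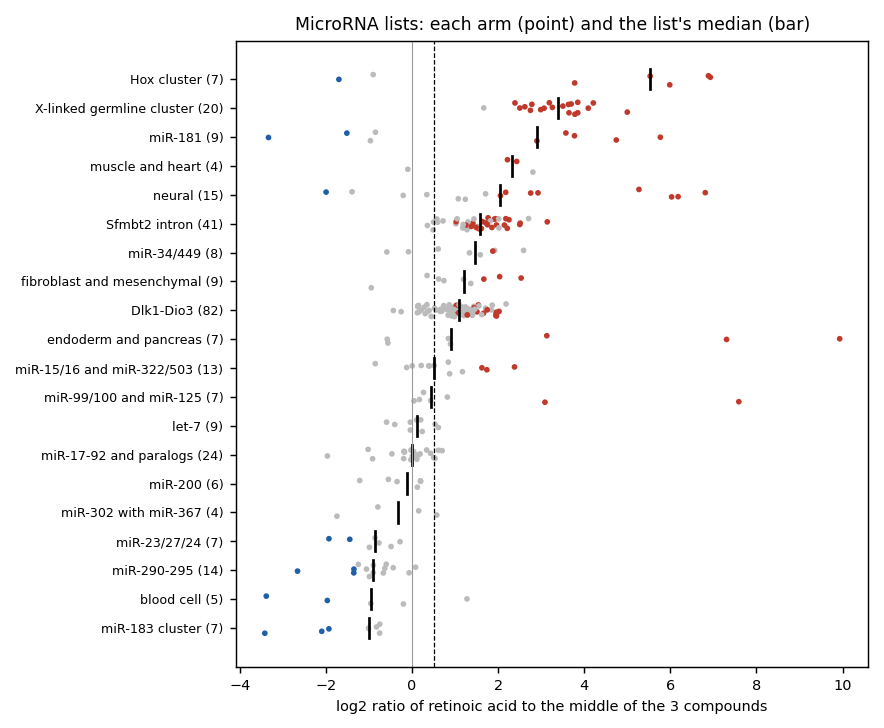
Log2 ratio of retinoic acid to the middle of the 3 compounds (horizontal axis) for every compared arm of 20 microRNA lists, with the number of arms in parentheses; red points are called higher, blue points lower, and black bars are list medians. The dashed line is the median of all arms at 0.51; the Hox list reaches 5.53 and the X-linked cluster 3.38, while the miR-183 cluster is at -1.01.

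Some features were counted over the called arms. The other arm of the hairpin was also compared for 78 of the higher calls and was called higher for 53 of them. For the 16 lower calls with a compared partner it was called lower for 4, and no hairpin had arms called in opposite directions. Of all compared arms, 22% were called higher and 3.76% lower. Arms of a hairpin can pass the minimum level together through 1 library, and the same share was not counted over all hairpins. These partner counts are therefore a description only. Another hairpin with a higher arm lay within 10 kb of 75 of the 123 higher calls (60.98%), and of 169 of the 559 compared arms (30.2%). Of the higher arms with 1 locus, 47.6% were intronic to a gene on the same strand, against 44.7% of all compared arms and 47.4% of the lower arms, so these shares lay close together. The median GC content of the mature sequences was 45.5% for higher arms, 50.0% for lower arms and 47.8% for all. Near the threshold, miR-485-5p, at a log2 ratio of 1.01 to the nearest compound, was just inside, and miR-34b-5p and miR-21a-5p, at 1.00 and 0.99, were just outside.

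Marker arms of other cell types were measured beside these results. Fibroblast or feeder arms summed to 2217 CPM after retinoic acid and 1472 to 2155 in the compounds, with miR-214-3p at 0 to 2.74 CPM in every library and 0 of 7 called. The wider fibroblast and mesenchymal list, which adds miR-21a, miR-22 and miR-152, summed to 18683 CPM against 6220 to 9421. Of its 9 compared arms, 7 lay above all 3 compounds, against 55.6% of all arms. Blood arms summed to 177 CPM against 281 to 312 and muscle arms to 6325 CPM against 589 to 1702. The 4 neuronal marker arms, of miR-124a and miR-9, summed to 1255 CPM against 3471 to 5807. That sum followed miR-124a-3p, while miR-9-5p and miR-9-3p lay above all 3 compounds. Stem cell arms summed to 168408 CPM after retinoic acid and to at least 272760 CPM in each other library. The part of other cell types in the calls was not tested. Tags of 18 or 19 bases made up 14.4% of the retinoic acid library and 8.01% to 18.7% of the compounds. The call for miR-6240-5p, at 1773 CPM against 136 to 545, rests on tags outside 20 to 24 bases.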

How the data were processed

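Small RNA of J1 cells was sequenced in 6 groups of 1 library. The deposited files list each distinct tag with its raw count, its length and its sequence, per the file contents, and no trimming or alignment is recorded in them. The mm9 genome is named per the submitters' processing notes, but the files hold no coordinates, so those given are on GRCm38. Per the labels, total RNA was isolated with TRIzol and libraries were made with a TruSeq RNA kit. The labels also say that raw reads of the BIO library were lost, and its count file was used.

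Tags of 18 to 26 bases were matched exactly to 1174 hairpins with a Mir symbol of 2202 miRNA transcripts in GENCODE M21. The most abundant tag of each hairpin side defined an arm, and tags starting within 2 bases were counted. Arms with the same tag were merged, and tags of several arms were split evenly. Tags matching rRNA, mitochondrial rRNA or tRNA, snoRNA, scaRNA or snRNA were left out, and large-subunit rRNA and nuclear tRNA were not searched. RefSeq mature sequences matched 1000 of 1290 arms. Where a most abundant tag overlapped the RefSeq sequence by under 15 bases, the RefSeq position was added as an arm and the tag named loop or beside the arm. That step was chosen after the data had been seen.

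Counts were scaled to CPM of microRNA tags. Log2 ratios used a pseudocount of 0.5 counts, and levels of 0 were set against 3 counts. Intervals are exact conditional binomial (Clopper-Pearson) at 95%, from scipy 1.17.1. Scripts were tested on simulated data. Alternatives used TMM from edgeR 4.0.16, size factors from DESeq2 1.42.0, all tags as the total, other minimum levels and counting rules, and fewer or more comparison libraries. The arms, the lists and the naming rule were chosen with earlier results of these data known. The rule took the 15 called arms farthest above and below at 100 CPM or more and the 3 most abundant members of each of 20 lists. Other arms in the text, including those from the clusters and the threshold, were chosen after their values were seen.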

Additional observations from a re-analysis of the deposited data

How the results depend on the processing

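The scale decided how many arms were called. With TMM scaling 72 were higher and 45 lower, with median-of-ratios scaling 75 and 42, and with all tags of the library as the total 38 and 102. All of the 72, 75 and 38 higher arms were among the 123, and all 21 lower arms were called under each of the 3. At a minimum of 50 CPM, which tests fewer arms, 78 were higher and 14 lower. The other counting rules, the minimum of 1 CPM and other sets of comparison libraries gave 105 to 184 higher and 17 to 30 lower calls, the 184 without vitamin C. A further 2 alternatives, and the list median over the same arms, were added after the data had been seen. Arms without the RefSeq placement changed each count by 1, and totals without the miR-290 to miR-295 arms gave 97 and 31, of which 94 and 21 were among the first.

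Of 76 named arms, 2 lost their call with TMM and with median-of-ratios scaling, and the same 2 changed side with all tags as the total, where 5 others lost theirs. The log2 ratio to the highest compound became -0.074 for miR-34c-5p and -0.165 for miR-503-5p. With untemplated 3' ends counted miR-292a-5p lost its call. With both vehicles added miR-295-5p, miR-196a-5p and miR-206-3p lost theirs. Depth limits low arms: retinoic acid had the fewest microRNA tags, and 3 counts there are 4.11 CPM. No paired analysis was possible because each group has 1 library.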

Other observations

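Some differences lay among the comparison libraries. miR-296-3p stood at 1220 CPM in DMSO and at 257 to 470 CPM elsewhere. The compounds lay within 2-fold of each other for 54 of the 123 arms called higher and 18 of the 21 called lower.

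Along the genome, loci of compared arms within 10 kb of the next on 1 strand formed groups in which calls went a single way. In the miR-379 to miR-410 stretch of chromosome 12, 52 of 55 arms lay above all 3 compounds and 9 were called. In the miR-34b and miR-34c locus on chromosome 9, 4 of 4 lay above and 1 was called. In the miR-23b cluster on chromosome 13, 4 of 5 lay below and 2 were called, and in the miR-23a cluster on chromosome 8, 3 of 4 lay below and 0 were called. Over all arms, 55.6% lay above and 22% below all 3 compounds, with 22% called higher and 3.76% called lower.

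The loops of miR-182 and miR-32 gave tags of 18 and 19 bases. The miR-182 loop stood at 2.74 CPM after retinoic acid and 16.7 to 49.7 in the compounds, and the miR-32 loop at 9.60 CPM against 32.8 to 58.8.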
